A study of Mus musculus with 6 samples.

Results

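A set of 10 genes that let the gut read its contents was described across 6 mouse duodenum libraries: the fatty acid receptors Ffar1, Ffar2 and Ffar3, the lipid amide receptors Gpr119 and Cnr1, the bile acid receptor Gpbar1, the amino acid, calcium and sweet receptors Casr, Gprc6a and Tas1r3, and Gnat3, the taste G protein alpha subunit gustducin. They were chosen by symbol and function, and all 10 had 1 row each among the 23235 symbols of the gene tables. RNA sequencing was done on duodenum, 2 cm of gut wall cut just below the stomach, from 6-week-old mice of mixed background, 3 mutant and 3 control, with 1 library each. The mutants, named TNint, were Nkx2.2flox/TN with Villin-Cre/+ and Rosa26Tomato/+. The controls were Nkx2.2flox/+ without Cre. Control 1 and control 2 also carried Rosa26Tomato/+, and control 3 did not. Every mouse therefore had 1 floxed allele of Nkx2.2, a transcription factor of enteroendocrine cell fate. TN, from what is known of the study, is an allele with a mutated tinman domain, and it is present in all tissues of the mutants. Villin-Cre acts in the intestinal epithelium, so Cre, the TN allele and the number of intact Nkx2.2 copies differ between the groups together and cannot be told apart.

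Nutrient receptors sit on enteroendocrine cells, the scattered hormone cells of the gut lining, and couple fat, protein, bile acid and sugar in the lumen to hormone release. Ffar1 binds long-chain fatty acids, and Ffar2 and Ffar3 bind the short-chain acids made by bacteria. Gpr119 binds oleoylethanolamide and monoacylglycerols, and Gpbar1 (also called TGR5) binds bile acids. Several of these genes are also used by other cells of the wall: Ffar2 by leukocytes, Ffar3 and Cnr1 by neurons, Gpbar1 by macrophages, and gustducin by tuft cells, the taste-like chemosensory cells of the epithelium. In libraries of the whole wall, fewer cells of a type and less RNA per cell cannot be told apart.

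Depth, read from the confidence intervals that the authors deposited with each FPKM value (fragments scaled by transcript length and library size), was 16.88 to 25.91 M (megareads) of implied reads in mutant libraries and 14.21 to 21.25 M in control libraries. Nkx2-2, the targeted gene, had 0.748, 0.744 and 0.666 FPKM in mutants and 1, 1.03 and 1.27 FPKM in controls, a partial check because the TN allele may still be transcribed. Its log2 fold change, mutant minus control, was −0.54 (limma adjusted p = 0.79). Each mutant lay below each control, as in 9.92% of all tested rows. Xist and Y-linked genes read mutant 3 and control 3 as female and the other 4 libraries as male. Pancreatic acinar transcripts were uneven. The summed level of the 14 acinar genes was 3050, 3140 and 13100 FPKM in mutants and 29.2, 460 and 11700 FPKM in controls. The summed level of the 12 stomach genes was 90.5 to 243 FPKM in mutants and 38.1 to 690 FPKM in controls, with Tff2 and Gkn3 the largest and Muc5ac listed at 0 in all 6 libraries. Gkn1 and Atp4b of the same list were each at 0 in 5 libraries, and which tissue gave this sum was not tested. Fabp2, the intestinal fatty acid binding protein of absorptive cells, was at 3800 to 5210 FPKM in mutants and 2750 to 4940 FPKM in controls.

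None of the receptors differed detectably between mutant and control duodenum. Of the 10 genes, 7 had a mean of at least 0.1 FPKM over the 6 libraries and were tested with limma on log2(FPKM + 0.1), and 3 (Casr, Gprc6a and Gnat3) fell below that level and are given as values only. None of the 7 passed an adjusted p of 0.05, where 0% of 15864 tested rows did (none, and 2 rows, Chga and Mt1, with the replicate number as a block). Their adjusted p-values in limma, over all rows, were 0.79 to 1. None of them had an unadjusted p under 0.05 either, where 5.81% of all rows did. The median log2 fold change of the 7 was −0.10, mutant minus control, and that of all tested rows was −0.05. Of the 7, 1 had a positive value, where 38.7% of all rows did, but 3 were positive with trimmed mean scaling of the libraries and 4 with quantile normalization, so the direction of these small values depended on scaling. The 10 genes together summed to 7.56, 6.81 and 4.59 FPKM in mutants and 5.88, 7.03 and 6.56 FPKM in controls. Mutant 1 was the highest of the 6 libraries in this sum and mutant 3 the lowest, with the controls between them.

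**Figure D1:**
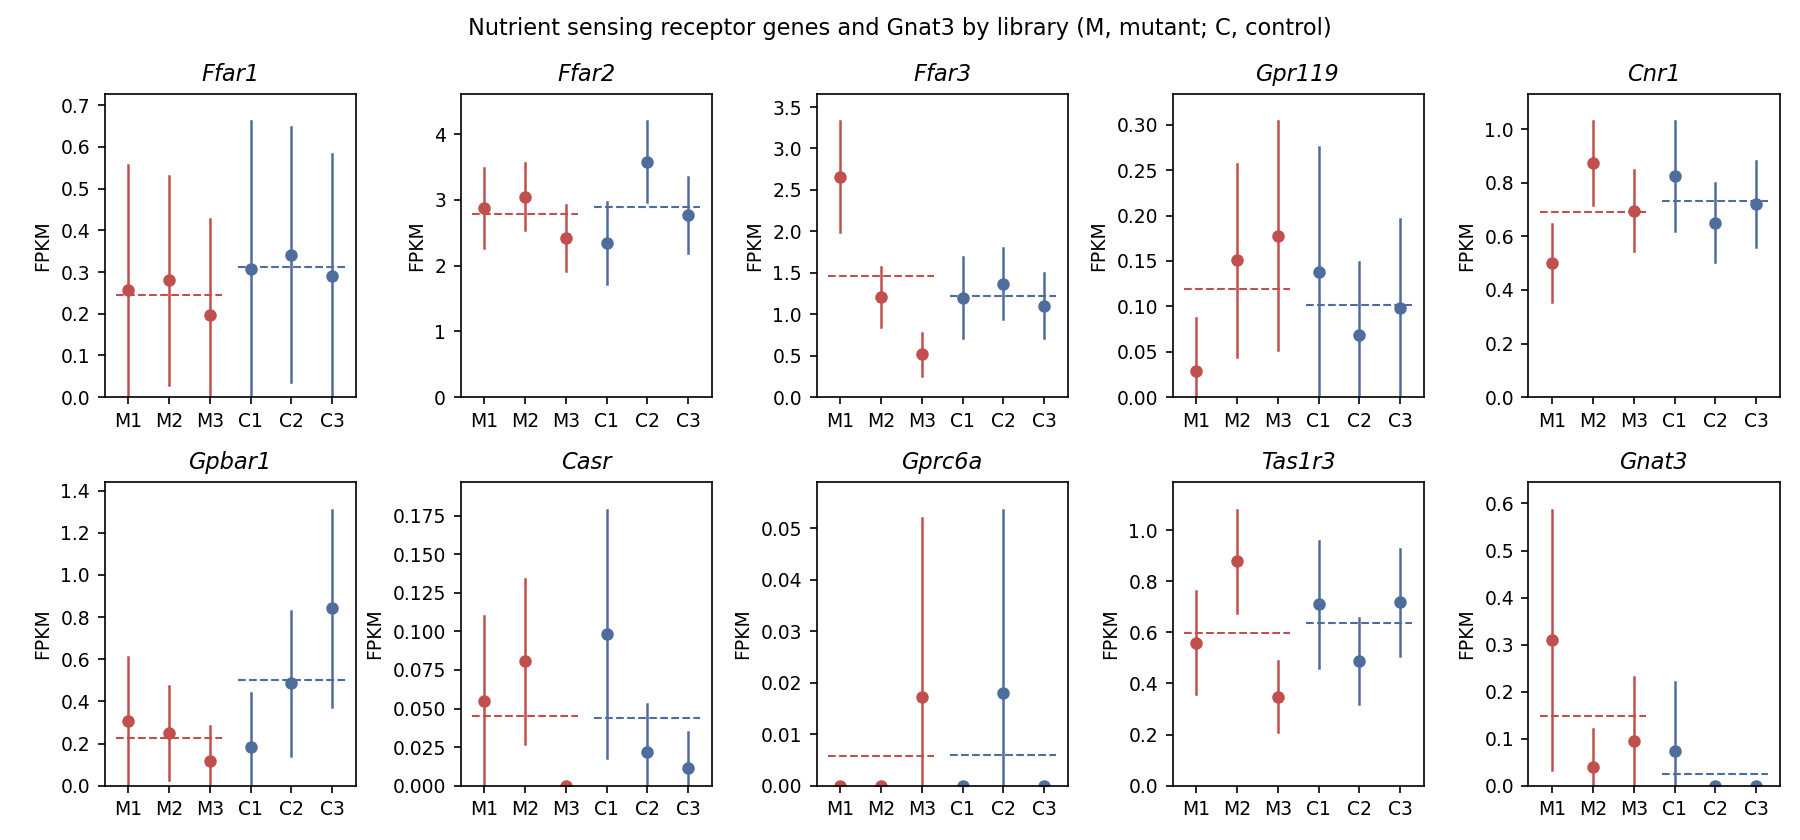
FPKM of each gene in mutant (M1 to M3, red) and control (C1 to C3, blue) libraries, with a linear axis per panel that starts at 0. Points are library values, vertical lines the deposited confidence interval (2 standard errors either side) and dashed lines group means; Ffar3 ranged from 0.518 to 2.66 FPKM within the mutants and from 1.1 to 1.37 FPKM within the controls.

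Ffar2 was the most abundant member. On the FPKM scale, which is per length, Ffar2 averaged 2.84 ± 0.452 over the 6 libraries (SD, n = 6) and was above Ffar3 in 6 of 6. It alone made up 38.1% to 52.8% of the summed FPKM of the 10 genes in mutants and 39.9% to 51% in controls. Ffar3 followed at 1.34 ± 0.708, then Cnr1 at 0.711 ± 0.132, Tas1r3 at 0.617 ± 0.19, Gpbar1 at 0.363 ± 0.265, Ffar1 at 0.279 ± 0.0485 and Gpr119 at 0.11 ± 0.0556 FPKM. Ffar3 was above Cnr1 in 5 of 6 libraries, Cnr1 above Tas1r3 in 4, Tas1r3 above Gpbar1 in 5 and Gpbar1 above Ffar1 in 3. Among these neighbours only Ffar1 and Gpr119 had ranges that did not overlap, so the middle of the order was within the spread between libraries. Gnat3, Casr and Gprc6a came last, and each was at 0 in at least 1 library.

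The 3 fatty acid receptor genes lie side by side on the minus strand of mouse chromosome 7 within 43.1 kb, and all are protein coding. In the mm9 build of the files Ffar2 spans chr7:31603376-31608794, Ffar3 chr7:31639349-31641197 and Ffar1 chr7:31645587-31646489. The deposited Ffar1 model is 903 bases and the Gpbar1 model 990 bases, both multiples of 3. Ffar2 has 5 RefSeq transcripts that share their 3′ end and differ in where they start. To show what precedes a start that was used in every library and one that was at 0.0807 FPKM or below in every library by its upper bound, the 250 bases before each start are given from the mm9 genome, 5′ to 3′ on the gene's strand, with the 10 bases next to the start in capitals. The first lies at chr7:31608795-31609044 and the second at chr7:31606668-31606917, and both are identical to windows in RefSeq's promoter table for GRCm38.p6.
Ffar2 NM_146187: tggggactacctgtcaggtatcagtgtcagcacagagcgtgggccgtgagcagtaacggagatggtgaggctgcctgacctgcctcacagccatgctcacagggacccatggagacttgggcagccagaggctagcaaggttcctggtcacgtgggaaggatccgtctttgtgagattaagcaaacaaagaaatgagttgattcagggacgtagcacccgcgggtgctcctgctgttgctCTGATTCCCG
Ffar2 NM_001168509: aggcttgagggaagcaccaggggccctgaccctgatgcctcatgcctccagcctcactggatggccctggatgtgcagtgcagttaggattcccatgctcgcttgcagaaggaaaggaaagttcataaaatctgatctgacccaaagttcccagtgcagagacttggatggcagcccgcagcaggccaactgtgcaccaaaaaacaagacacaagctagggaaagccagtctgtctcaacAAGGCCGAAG

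Ffar2, the short-chain fatty acid receptor with the most reads, was level between the groups. Its values were 2.88, 3.05 and 2.42 FPKM in mutants, behind which stood 89, 142 and 93 implied reads, and 2.35, 3.58 and 2.77 FPKM in controls, with 56, 135 and 94 reads. The groups overlapped throughout, and the highest and the lowest library were both controls. The means were 2.78 ± 0.324 FPKM in mutants and 2.9 ± 0.629 FPKM in controls (SD, n = 3 each). The log2 fold change was −0.04 (SE 0.18, 95% interval −0.47 to 0.38, limma adjusted p = 0.97), and its sign turned with scaling, at 0.01 with the trimmed mean and 0.04 with quantiles. This interval corresponds to a mutant level between 0.724 and 1.3 times the control level, so a halving or a doubling lay outside it. In the authors' deposited table the log2 fold change of Ffar2 was 0.05 with an adjusted p of 1.

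Start site use of Ffar2 was read from the transcript tables. NM_146187, which starts farthest upstream, was at 1.49, 1.24 and 0.72 FPKM in mutants and 1.28, 1.36 and 0.552 FPKM in controls. It was present in all 6 libraries and lowest in mutant 3 and control 3. These libraries were read as female, had the most acinar transcripts and share a replicate number, which cannot be told apart here. NM_001168509 had 2.4e-06 FPKM or less in every library. NM_001168512 was at 1.39, 0.821 and 0.656 FPKM in mutants and at 1.04 and 0.798 FPKM in control 2 and control 3, with an upper bound of 0.0768 FPKM in control 1. NM_001168510 reached at least 0.1 FPKM in 4 of 6 libraries and NM_001168511 in 3. The 3 most downstream starts lie close to each other, and the share of reads given to each varied from library to library in both groups while the gene's highest total was 1.52 times its lowest. Transcript values of this kind are estimates that divide shared reads, and their differences were not tested.

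**Figure D2:**
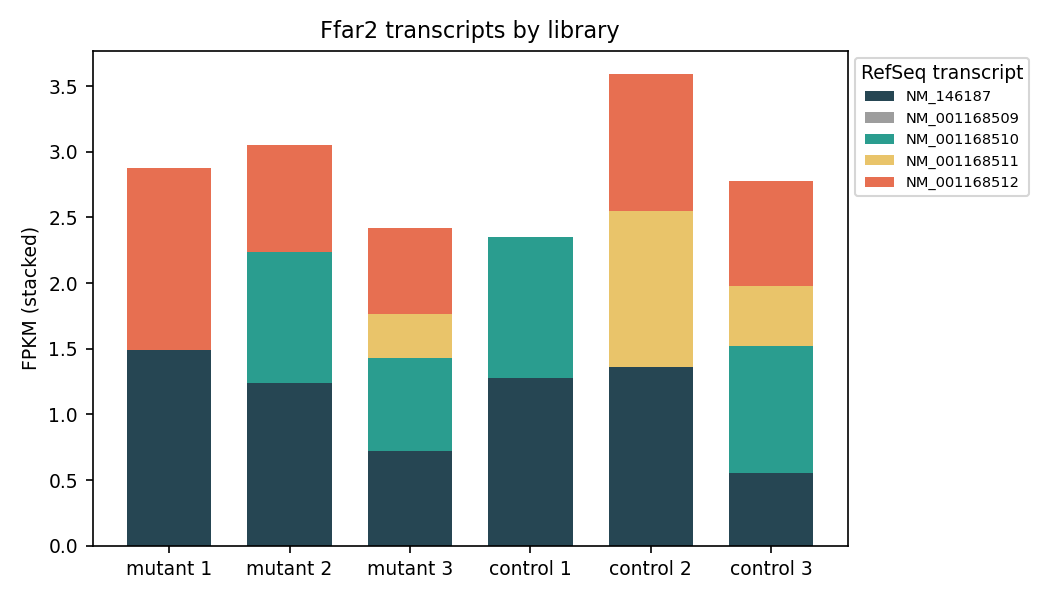
FPKM of the 5 RefSeq transcripts of Ffar2, stacked, in 3 mutant and 3 control libraries, ordered from the farthest upstream start (bottom). NM_146187 is present in every bar at 0.552 to 1.49 FPKM, NM_001168509 is too low to see, NM_001168512 is missing from control 1 and NM_001168510 and NM_001168511 are each missing from libraries of both groups.

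Ffar3, the other short-chain fatty acid receptor, varied more among the mutants than between the groups. The 250 bases before its start (mm9, chr7:31641198-31641447, minus strand, also in the RefSeq table) are shown because Ffar3 had the widest range of the well covered members. The capitals mark TGACGTCA, the cAMP response element, whose letters were picked after the window had been read. The element was searched on either strand, on which it reads the same.
Ffar3 NM_001033316: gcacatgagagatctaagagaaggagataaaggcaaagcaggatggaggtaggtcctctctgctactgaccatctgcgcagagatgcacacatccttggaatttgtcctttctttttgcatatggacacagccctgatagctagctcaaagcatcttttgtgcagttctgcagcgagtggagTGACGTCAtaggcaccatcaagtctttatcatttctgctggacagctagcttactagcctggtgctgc
TGACGTCA was in 1.55% of the 32851 RefSeq windows of the same length, and 1 of the 15 windows of the 10 genes did. The match is a description of letters and not of a bound site.

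Values of Ffar3 were 2.66, 1.21 and 0.518 FPKM in mutants, from 63, 44 and 16 implied reads, and 1.2, 1.37 and 1.1 FPKM in controls, from 24, 41 and 31 reads. Mutant 1 was the highest library and mutant 3 the lowest, and the 3 controls and mutant 2 lay close together. The deposited confidence intervals of mutant 1 (1.99 to 3.33 FPKM) and mutant 3 (0.259 to 0.777 FPKM) did not overlap with each other, and that of mutant 1 lay above those of all 3 controls. The group means were 1.46 ± 1.09 FPKM in mutants and 1.23 ± 0.135 FPKM in controls (SD, n = 3 each). The log2 fold change was −0.02 (SE 0.5, 95% interval −1.2 to 1.16, limma adjusted p = 1), and it was −0.56 without mutant 1 and 0.52 without mutant 3. Ffar2 over Ffar3 was 1.08, 2.53 and 4.68 in mutants and 1.95, 2.61 and 2.51 in controls.

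Tuft cell markers took the same order over the mutant libraries as Ffar3. The summed level of the 12 tuft genes was 83.9, 59.7 and 43.3 FPKM in mutants and 54.6, 56.6 and 56.1 FPKM in controls. Mutant 1 was the highest and mutant 3 the lowest of the 6 libraries for 9 of 12 tuft genes (75%), where this held for 3.03% of all tested rows. The pattern was looked for after the values of Ffar3 had been seen. Pou2f3, the transcription factor that specifies tuft cells, had 2.09, 1.39 and 0.575 FPKM in mutants and 1.2, 1.11 and 1.2 FPKM in controls. Trpm5, the cation channel of taste and tuft cells, had 6.62, 4.21 and 2.68 FPKM in mutants and 4.4, 4.96 and 5.29 FPKM in controls. Dclk1, a kinase used as a tuft marker, had 3.93, 2.43 and 1.63 FPKM in mutants and 2.74, 2.8 and 2.86 FPKM in controls. No tuft gene passed adjustment, and 1 of the 12, Gng13, was at 0 in 1 library, control 1. The part of tuft cell number in the level of Ffar3 was not tested.

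**Figure D3:**
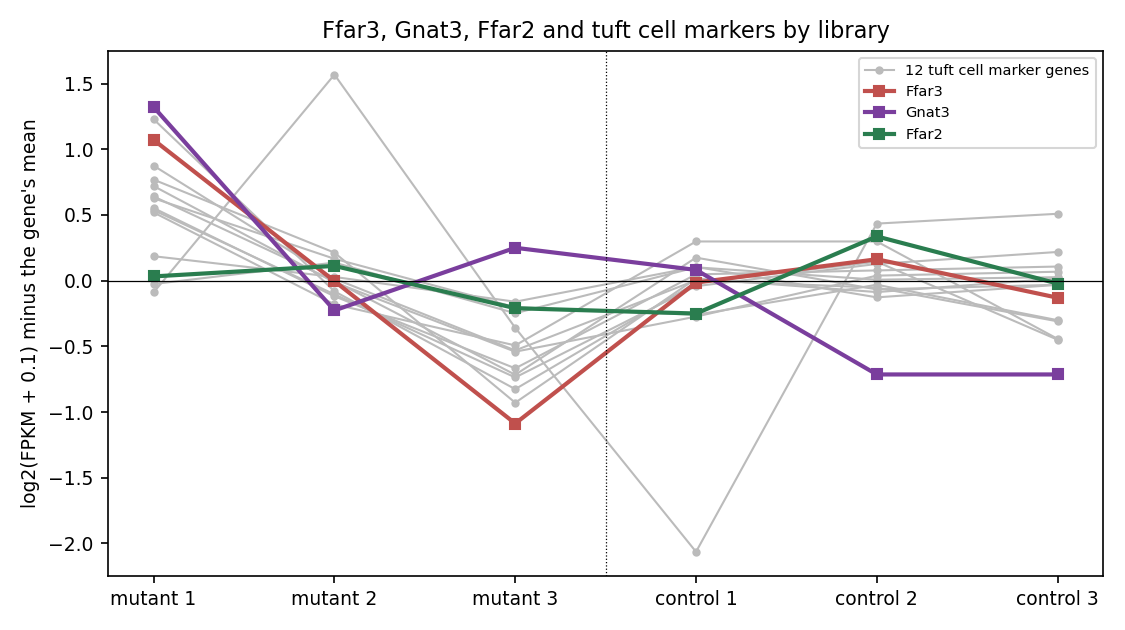
Level of Ffar3, Gnat3, Ffar2 and 12 tuft cell marker genes in each library, as log2(FPKM + 0.1) minus the gene's own mean over the 6 libraries, with mutants left of the dotted line. Ffar3 and most tuft markers are highest in mutant 1 and lowest in mutant 3 and nearly level over the controls, while Ffar2 has a narrower range (2.35 to 3.58 FPKM); Gng13 is the marker that drops in control 1.

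The genes most alike to the 3 most abundant members were named by Pearson's r over the 6 libraries among rows with a mean of at least 1 FPKM, as a description with no test. They were the highest among at least 12569 genes, over 6 points that share library and depth. They were Rcn3 (r = 0.998), 9530053A07Rik (0.985) and Hsdl2 (0.983) for Ffar2. For Ffar3 they were Fyb (0.995), Gprc5c (0.973) and A930005H10Rik (0.969). Fyb, an adaptor protein of blood cells, was at 9.53, 7.87 and 6.43 FPKM in mutants and 8.05, 8.09 and 7.58 FPKM in controls, so it had a narrower range than Ffar3. For Cnr1 they were Hspa12b (0.981), Pdk1 (0.978) and Plcb3 (0.975).

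Ffar1, the long-chain fatty acid receptor, was near the limit of detection. It had 0.258, 0.28 and 0.198 FPKM in mutants, from 3, 5 and 3 implied reads, and 0.307, 0.342 and 0.291 FPKM in controls, from 3, 5 and 4 reads. Each mutant lay below each control. Groups with no overlap and lower mutants made up 9.92% of all tested rows, and 13.1% had no overlap in either direction. Summed over the groups, 11 reads in mutants stood against 12 in controls, a ratio of 0.784 after scaling to depth with an exact (Clopper-Pearson) 95% interval of 0.313 to 1.94 that covers counting error only. The log2 fold change was −0.26 (SE 0.22, 95% interval −0.78 to 0.25, limma adjusted p = 0.81). Ins2, the insulin gene of pancreatic beta cells, which also use Ffar1, was at 0.992, 0.859 and 3.82 FPKM in mutants and 0, 1.42 and 2.95 FPKM in controls. Ucn3, a beta cell peptide, was at 0.471, 0.887 and 0.759 FPKM in mutants and 1.29, 1.23 and 0.795 FPKM in controls. It was highest in control 1, where Ins2 was at 0. The part of islet cells in the level of Ffar1 was not tested. O3far1, the older symbol of Ffar4, another long-chain fatty acid receptor, was higher than Ffar1 in all 6 libraries, at 2.02, 1.25 and 2.01 FPKM in mutants and 1.02, 2 and 3.28 FPKM in controls (log2 fold change −0.13, limma adjusted p = 0.97).

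Gpr119 (mm9, chrX:46021156-46027655, minus strand), which raises cAMP in hormone cells when it binds its lipid amides, was at 0.029, 0.151 and 0.178 FPKM in mutants and 0.138, 0.0689 and 0.098 FPKM in controls. These values came from 1, 8 and 8 reads in mutants and 4, 3 and 4 in controls. Mutant 1 was the lowest library and the other mutants the highest. Its log2 fold change was 0.06 (SE 0.38, 95% interval −0.84 to 0.96, limma adjusted p = 0.98) and turned to −0.03 at a pseudocount of 0.01. Cnr1 (mm9, chr4:34011607-34035806, plus strand), the cannabinoid receptor of neurons and of some hormone cells, was better covered, with 47 to 126 reads a library. It had 0.501, 0.873 and 0.696 FPKM in mutants and 0.824, 0.651 and 0.721 FPKM in controls. Mutants held both the lowest and the highest value, and the difference was −0.10 on the log2 scale (SE 0.22, 95% interval −0.63 to 0.44, limma adjusted p = 0.95), or 0.02 with quantile normalization. The summed level of the 13 neuron and glia genes was 34.3, 37.6 and 35 FPKM in mutants and 50.9, 36.1 and 40.8 FPKM in controls. Within the mutants and within the controls, this sum ranked the libraries in the same order as Cnr1, and its part in the level of Cnr1 was not tested.

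Gpbar1, the bile acid receptor (mm9, chr1:74325174-74326163, plus strand), had the largest difference of the tested members, on few reads. It was at 0.306, 0.249 and 0.118 FPKM in mutants, from 4, 5 and 2 reads, and at 0.182, 0.485 and 0.841 FPKM in controls, from 2, 8 and 13 reads. Control 2 and control 3 were above every mutant, and control 1 was below mutant 1 and mutant 2. The means were 0.224 ± 0.0967 FPKM in mutants and 0.503 ± 0.33 FPKM in controls (SD, n = 3 each), with a log2 fold change of −0.78 (SE 0.48, 95% interval −1.91 to 0.36, limma adjusted p = 0.79). With the acinar level as a covariate it was −1.27 (limma adjusted p = 0.83), without control 1 it was −1.24 (adjusted p = 0.99) and without control 3 it was −0.37 (adjusted p = 0.83). By reads, 11 in mutants stood against 23 in controls, a depth-scaled ratio of 0.409 with an exact 95% interval of 0.18 to 0.873 for counting error only. That interval holds no spread between mice, and control 1 and control 3 alone differed by more than the group means did. In the authors' deposited table the log2 fold change was −1.11 with an adjusted p of 1. The macrophage and neutrophil genes, which mark cells that also use Gpbar1, summed to 208, 192 and 209 FPKM in mutants and 203, 197 and 174 FPKM in controls, and their part in the level of Gpbar1 was not tested. Nr1h4, the nuclear bile acid receptor FXR of the epithelium, was at 34.8, 28 and 30 FPKM in mutants and 38.3, 30.5 and 28.4 FPKM in controls.

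Tas1r3 (mm9, chr4:155233379-155237462, minus strand), the shared subunit of the sweet and umami receptors, was the best covered of the 3 class C receptors. It had 0.56, 0.88 and 0.347 FPKM in mutants and 0.709, 0.487 and 0.718 FPKM in controls, with 25 to 75 reads a library. The mutants again held both extremes. The difference was −0.14 on the log2 scale (SE 0.32, 95% interval −0.9 to 0.62, limma adjusted p = 0.94). Its 3′ end overlaps that of Dvl1 on the opposite strand by 36 bases in the GENCODE annotation, and no source used here says that the counting used strand. The partner subunits were scarcely present. Tas1r2, the sweet partner, was at 0.0421, 0.109 and 0.178 FPKM in mutants and 0.05, 0.0501 and 0.338 FPKM in controls. Tas1r1, the umami partner, was at most 0.0753 FPKM in mutants and 0.0587 FPKM in controls. Tas1r3 was thus above Tas1r2 and Tas1r1 in all 6 libraries. The log2 fold change of Tas1r3 was 0.14 without mutant 3.

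Casr, the calcium-sensing receptor (mm9, chr16:36493782-36562220, minus strand), was detected in 5 of 6 libraries, at 0.0552, 0.0807 and 0 FPKM in mutants and 0.0985, 0.0219 and 0.0117 FPKM in controls. The reads were 4, 9 and 0 in mutants and 6, 2 and 1 in controls. In the GENCODE annotation a 7SK gene on the same strand overlaps the span of Casr by 318 bases. Whether it overlaps an exon was not looked at. A count of 0 in mutant 3 allows up to 0.0318 FPKM, the level of 3 reads, which is above the values of control 2 and control 3. Over the groups 13 reads stood against 9, a depth-scaled ratio of 1.24 (exact 95% interval 0.488 to 3.27, counting error only). Gprc6a, a receptor for basic amino acids (mm9, chr10:51334629-51351264, minus strand), had 1 read in mutant 3 and 1 in control 2, or 0.0173 and 0.0179 FPKM, and was at 0 in the other 4 libraries, where 3 reads would be 0.0677 and 0.0439 FPKM in mutant 1 and mutant 2 and 0.0804 and 0.0572 FPKM in control 1 and control 3. The depth-scaled ratio of Gprc6a was 0.855 (exact 95% interval 0.0109 to 67.1, counting error only). At this depth no difference in Casr could have been seen unless it was severalfold, and for Gprc6a even a severalfold one could not.

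Gnat3, gustducin (mm9, chr5:17468388-17525486, plus strand), couples sweet and bitter receptors to their signal. The 250 bases before its start (chr5:17468138-17468387) are shown because Gnat3 is, with Cnr1, 1 of 2 members with a match to TNAAGTG, the core recognised by homeodomains of the Nkx2 family. The motif was searched on both strands, and the capitals mark its 2 matches, which here read CACTTNA on the printed strand.
Gnat3 NM_001081143: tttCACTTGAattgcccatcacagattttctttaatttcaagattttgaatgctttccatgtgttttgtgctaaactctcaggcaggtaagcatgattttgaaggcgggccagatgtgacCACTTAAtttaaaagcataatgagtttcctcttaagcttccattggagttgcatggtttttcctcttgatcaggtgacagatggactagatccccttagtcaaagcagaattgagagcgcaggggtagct
TNAAGTG was in 2 of the 15 windows of the 10 genes and in 10.1% of all 32851 windows, so such a match was common. It describes letters and says nothing of binding in these cells.

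Gnat3 was at 0.31, 0.0402 and 0.0951 FPKM in mutants, from 5, 1 and 2 reads, and at 0.0736, 0 and 0 FPKM in controls, from 1, 0 and 0 reads. All 3 mutants had reads and 1 of 3 controls did. Over the groups 8 reads stood against 1, a depth-scaled ratio of 6.84 with an exact 95% interval of 0.917 to 304 for counting error, which includes no difference. A count of 0 allows up to 0.147 FPKM in control 2 and 0.157 FPKM in control 3, both above mutant 2 and mutant 3. Of the 8 mutant reads 5 were in mutant 1. Gnat3 was below the filter. Tested with no filter it had a log2 fold change of 0.9 (SE 0.49, limma adjusted p = 0.9), and the authors' deposited table gave 2.82 with an adjusted p of 1. Mutant 1 was also the library in which the tuft genes were highest, and their part in the reads of Gnat3 was not tested.

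**Figure D4:**
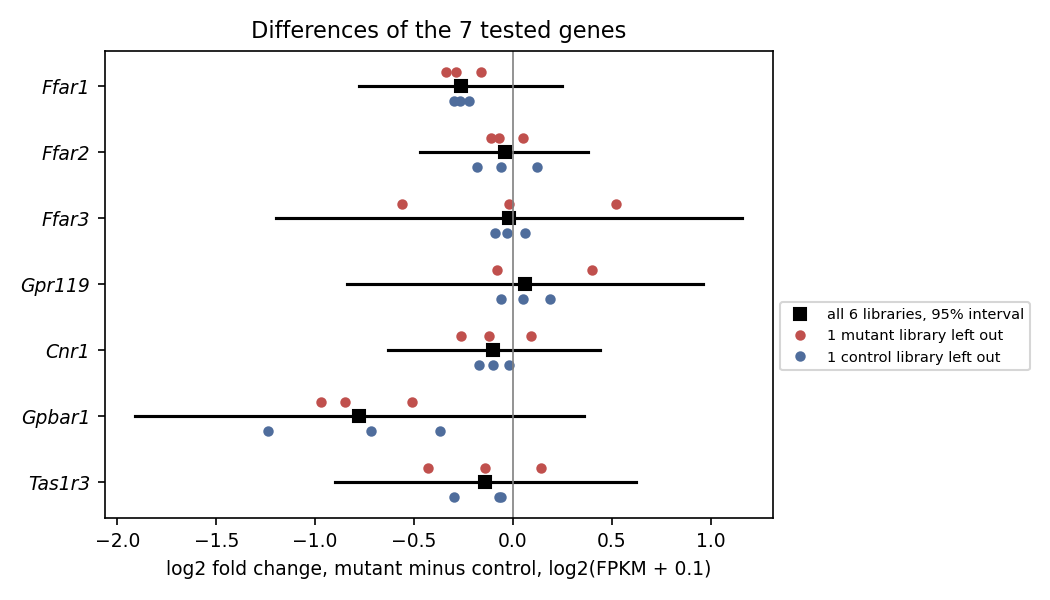
Log2 fold change, mutant minus control on log2(FPKM + 0.1), of the 7 tested genes: black squares with 95% intervals from limma on all 6 libraries, red points with 1 mutant library left out (above) and blue points with 1 control library left out (below). Every interval includes 0, and the values of Ffar3 move from −0.56 to 0.52 as mutant 1 or mutant 3 is left out.

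Signalling partners and related receptors were read from lists chosen by function. Of the receptors of related ligands 10 were tested, with 8 negative values and 2 positive values (median log2 −0.06), and none passed an adjusted p of 0.05. Gpr55, a lysolipid receptor, had 0.19, Lpar5, a receptor for lysophosphatidic acid and protein digests, 0.10, and Niacr1, the older symbol of the niacin receptor Hcar2, −0.30, each with an adjusted p of 0.81 to 0.87 in limma. Of 9 taste signalling genes 4 were positive and none passed (median −0.06). Gnat2, the transducin alpha subunit of cones and a relative of gustducin, had 0.463, 0.629 and 0.808 FPKM in mutants and 0.2, 0.334 and 0.32 FPKM in controls (log2 0.92, SE 0.27, limma adjusted p = 0.79). Each mutant was above each control in Gnat2, as in 3.13% of all tested rows. Itpr3, the calcium release channel of taste cells, had −0.27, and Gng13, a gamma subunit of gustducin, 0.75, neither past the threshold.

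Downstream G proteins and second messenger genes had 10 negative and 2 positive values among 12 tested (median log2 −0.11), and none passed. Adcy5, an adenylyl cyclase, was at 2.84, 2.52 and 2.09 FPKM in mutants and 3.17, 3.37 and 3.14 FPKM in controls (log2 −0.38, limma adjusted p = 0.79), and Adcy9 and Gnao1, the neuronal G protein alpha subunit, had −0.21 and −0.18. Enzymes that make and break endocannabinoids had a median of −0.04 over 8 tested genes with 3 positive and none passing. Mgll, the lipase that breaks monoacylglycerols, had −0.17, and Faah, the hydrolase of fatty acid amides that act on Gpr119 and Cnr1, and Abhd6, a second such lipase, 0.21 each. Nutrient carriers had a median of 0.09 over 11 tested, with 8 positive and none passing, among them the sugar carriers Slc2a2 at 0.20 and Slc2a5 at 0.17 and Fabp2 at 0.34. Under trimmed mean scaling the medians of these lists were −0.01 (related receptors), 0 (taste signalling), −0.05 (G proteins), 0.01 (endocannabinoids) and 0.15 (nutrient carriers), and that of all rows 0.01. With 1 library left out they ran from −0.07 to 0.05, −0.15 to 0.05, −0.16 to −0.07, −0.09 to 0.04 and 0.01 to 0.20, in the same order of lists.

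**Figure D5:**
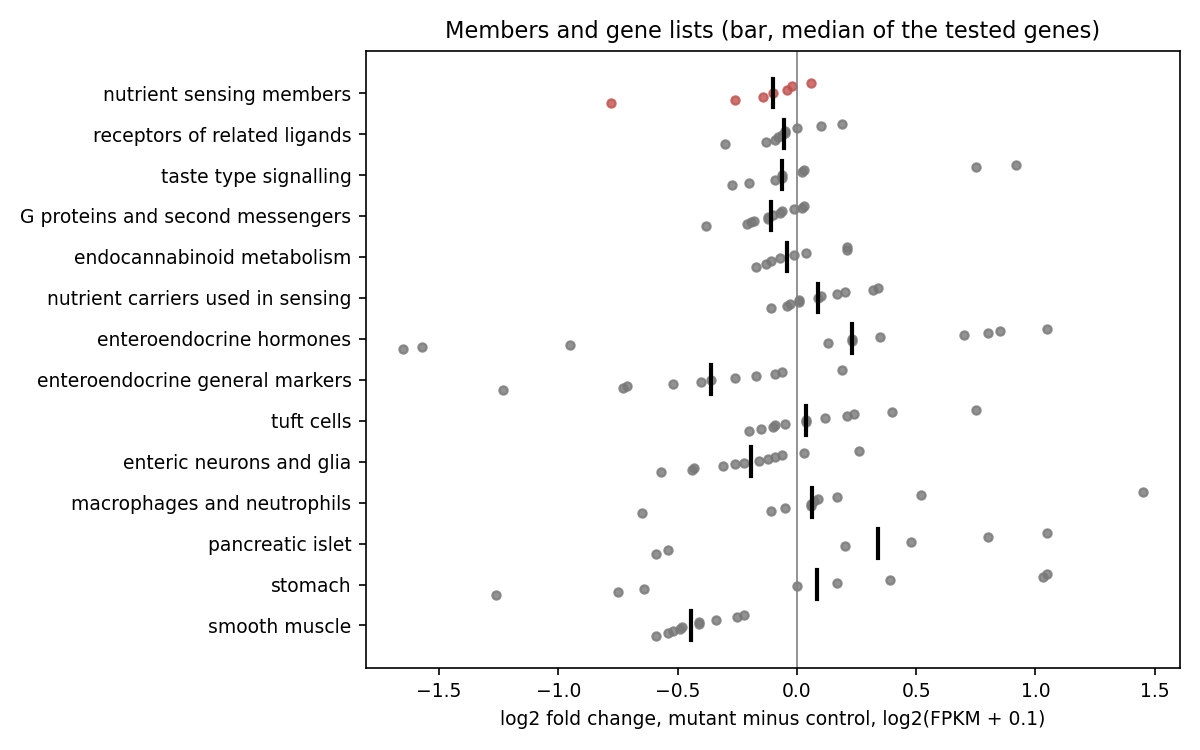
Log2 fold change, mutant minus control on log2(FPKM + 0.1), of each tested gene of the members (red) and of 13 gene lists (grey), with black bars for medians; the pancreatic acinar list (median 3.32) and the sex-linked list are not drawn. The median of the members (−0.10) lies between that of the enteroendocrine general markers (−0.36) and that of the enteroendocrine hormones (0.23).

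The lists of hormone cell genes had medians of opposite sign. Enteroendocrine general markers had 10 negative and 1 positive value among 11 tested (median log2 −0.36), and their summed level was 81.2, 126 and 94 FPKM in mutants and 159, 176 and 162 FPKM in controls, with no overlap. The largest part of that sum in every library was Chgb, at 44.2, 71.3 and 51.6 FPKM in mutants and 88.2, 96.7 and 87.8 FPKM in controls. By gene, 4 of the 11 markers had each mutant below each control, as in 9.92% of all tested rows. In 1 marker each mutant lay above each control, as in 3.13% of all rows. The median of the markers was −0.15 without mutant 1 and −0.52 without mutant 2. Chga, chromogranin A, had −1.23, Chgb, chromogranin B, −0.73 and Tph1, the serotonin enzyme, −0.71, with limma adjusted p-values of 0.28, 0.79 and 0.79. Chga had a log2 fold change of −1.17 and an adjusted p of 3.3e-08 in the authors' deposited table, where 7 of 18541 genes (0.0378%) were called. Enteroendocrine hormones had 8 positive and 3 negative values among 11 (median 0.23), with Tac1 (substance P) at −0.95, Pyy (peptide YY) at −1.65 and Cck (cholecystokinin) at 0.85, none past adjustment over all rows. The summed level of the hormones was 604, 703 and 630 FPKM in mutants and 459, 553 and 461 FPKM in controls, higher in mutants with no overlap. That sum is weighted to the most abundant hormones, among them Cck, at 139, 113 and 92.7 FPKM in mutants and 55.9, 76.6 and 57.3 FPKM in controls. By gene, 3 hormones had each mutant above each control, as in 3.13% of all tested rows. Another 3 had each mutant below each control, as in 9.92% of all rows. The median of the hormones was 0.42 without mutant 1. Whether a member's change differed from that of Chga was not tested.

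Other cell type lists gave medians of 0.04 for tuft cells (12 tested), −0.19 for enteric neurons and glia (12), 0.07 for macrophages and neutrophils (10), 3.32 for pancreatic acinar cells (14), 0.34 for pancreatic islet (6), 0.08 for stomach (8), −0.44 for smooth muscle (10) and −0.12 for sex-linked genes (5). Single libraries moved several of these medians: tuft cells to −0.28 without mutant 1 and 0.35 without mutant 3, nerve to −0.37 without control 2, and acinar cells to 1.11 without control 1 and 5.62 without control 3. The islet median was −0.14 without control 1, 0.58 without mutant 1 and 0.99 without control 3. With 1 library left out the stomach median ran from −0.47 (without control 2) to 0.78 (without control 1), that of macrophages and neutrophils from 0.01 (without control 3) to 0.10, and that of sex-linked genes from −2.14 (without control 3) to 1.99 (without mutant 3). The smooth muscle median kept its sign, from −0.54 to −0.36 with 1 library left out, and all 10 genes were negative. Of these 10, 9 had an unadjusted p under 0.05 in limma, where 5.81% of all rows did in either direction. In 8 each mutant lay below each control, as in 9.92% of all rows. The cause was not tested. No gene of these lists passed an adjusted p of 0.05. Their leading genes were Ltc4s (0.40), Gng13 and Il17rb (0.24) for tuft cells, and Snap25 (−0.57) and Tubb3 (−0.44) for nerve. Macrophages and neutrophils were led by S100a9 (−0.65), Cxcr2 (0.52) and C1qa (0.17), acinar cells by Ctrb1 (3.55), Try5 (3.41) and Cela3b (3.41), and islet by Ucn3 (−0.59), Iapp (0.80) and Slc2a2. Slc2a2 was also on the list of nutrient carriers and Iapp on that of hormones, so the islet median does not describe islet cells alone. Stomach was led by Tff1 (1.03), Gast (1.05) and Pgc (−0.75), smooth muscle by Myh11 (−0.52), Synpo2 (−0.48) and Acta2 (−0.41), and the sex-linked list by Eif2s3y (0.30), Uty (−0.12) and Xist (−0.15).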

How the data were processed

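The submitters' processing notes name DESeq, Cufflinks, TopHat and CASAVA (1.8.2), and mm9 as genome. The sources used here do not give the read counter, strand setting or remaining versions. According to the file headers, the authors deposited FPKM with a confidence interval for genes and RefSeq transcripts, transcript coverage, and a DESeq table with group means of counts divided by size factors (a signal), a fold as ratio and log2 value, and p-values. Libraries were made with the TruSeq RNA kit from RNA with high integrity numbers, per the labels' protocols.

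Implied reads were computed as the squared ratio of FPKM to its standard error, the interval reaching 2 standard errors above the value. For single-transcript genes under 500 reads, 88.2% to 88.5% of values lay within 0.05 of a whole number, which served as depth and in 1 alternative. Differences were tested on log2(FPKM + 0.1) by limma (3.58.1, R 4.3.3), its prior variance following a trend, for the 15864 rows whose mean reached 0.1 FPKM (7835 did not), with Benjamini-Hochberg adjustment over all of them. The fit was also run on simulated data with normal errors and known changes. That setting is unlike members that rest on few reads, so it says nothing of them. Where nothing says that the mice were independent litters, p-values measure only the spread between these 6 samples. Read intervals used scipy 1.17.1 and, like the limit of 3 reads for a count of 0, cover counting error only.

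The named genes were the members, the 3 genes of each of 15 lists with the smallest unadjusted p, the 3 rows most alike to each of the 3 most abundant members, and Nkx2-2; other genes named beside a member were chosen after their values were seen. The values of 1 gene that this rule names are not reported here. Members and lists were chosen with earlier results of these data known. Deviations from group means correlated at 0.11, 0.27 and 0.44 between libraries numbered 1, 2 and 3 over genes of at least 1 FPKM. Libraries with unlike numbers were not compared, and mutant 3 and control 3 also shared the sex read from the data. No label says what the numbers mark, so a pairing of the samples was not established. The main fit used no block, and the replicate number entered only as an alternative. Alternatives were other pseudocounts, filters, scalings and weights, limma without trend, the replicate block, sex and acinar covariates, implied reads with limma voom, and leaving out each library.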

Additional observations from a re-analysis of the deposited data

How the results depend on the processing

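No member was called under any alternative run (at a filter of 1 FPKM only 2 members were tested), and the replicate block, with which 0 members passed, changed no call of a member. The calls over all rows were 0 in the main fit, 2 under the replicate block, 1 when sex was a covariate and 0 to 3 with 1 library left out. At an unadjusted p under 0.05 there were 237 rows higher and 685 lower, against 553 and 366 after scaling by the trimmed mean and 360 and 431 after quantile normalization. The higher count was 445 with the replicate block and 378 with the acinar covariate. With 1 library left out the higher count ran from 187 to 361 and the lower from 391 to 895. Members under that p were 0, and 1, Gpbar1, with the acinar covariate and without control 1 (0 to 1 with 1 library left out). Signs of small member values turned: Ffar2 from −0.04 to 0.01 (trimmed mean) and 0.04 (quantile), Ffar3 from −0.02 to 0.05 (pseudocount 1), 0.03 (trimmed mean), 0.08 (quantile), 0.06 (quality weights) and 0.2 (acinar covariate), Gpr119 from 0.06 to −0.03 (pseudocount 0.01) and Cnr1 from −0.10 to 0.02 (quantile). With 1 library left out the log2 fold changes ran from −0.18 to 0.12 for Ffar2, −0.56 to 0.52 for Ffar3, −0.08 to 0.4 for Gpr119, −0.26 to 0.09 for Cnr1 and −0.43 to 0.14 for Tas1r3, and those of Ffar1 (−0.34 to −0.16) and Gpbar1 (−1.24 to −0.37) stayed negative. Gpr119 gave no value without mutant 3, its highest library, because its mean over the others fell below the filter of 0.1 FPKM. What turned the signs of the small values was not tested. Depth limits Casr, Gprc6a, Gnat3, Gpr119, Ffar1 and Gpbar1, which had 34 reads or fewer over all 6 libraries.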
